A study of Cardamine sp. SIM-2007 with 7 samples.

Results

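Cpn60beta2 encodes a beta subunit of the chloroplast chaperonin, and its transcript was followed here in flower primordia of Cardamine kokaiensis, a crucifer related to Arabidopsis. It was read by 1 of the 22746 probe sets tested, the only one that the platform annotation pairs with this symbol alone. The gene was chosen because its signal was higher in CL than in INT and in CH flowers, so those differences are described below without a test. CL (cleistogamous) flowers stay closed and pollinate themselves, CH (chasmogamous) flowers open, and INT is the submitters' name for an intermediate kind. The CL plants had 28 days of chilling after germination, the INT plants 14 days after germination and the CH plants 14 days before germination. Flower type and chilling therefore cannot be told apart. Each flower type had 2 biological replicates, each a pool of 160 inflorescence primordia carrying the primordia of flowers 1 to 8, and each RNA was hybridized to an Affymetrix ATH1 array, whose probes are of Arabidopsis. A further array held genomic DNA from leaf tissue of unchilled plants.

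Chaperonins are barrel-shaped complexes that enclose an unfolded protein and let it fold in isolation. The chloroplast form is built from alpha and beta subunits and is closed by small co-chaperonins, and it is best known for folding the large subunit of Rubisco, the enzyme that fixes carbon dioxide. Arabidopsis has several beta subunit genes with closely related sequences, and related chaperonins work in the mitochondrion (the Hsp60 type) and in the cytosol (the CCT type). In the primordia of a flower the plastids are mostly still undeveloped.

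The Cpn60beta2 probe set had deposited intensities of 5041 and 4416 on the 2 CL arrays, 2284 and 1962 on the 2 INT arrays, and 1939 and 1937 on the 2 CH arrays. Both CL arrays lay above the other 4, and the dimmer CL array was 1.93 times the brightest INT or CH array. Mean intensity was 4729 ± 442 in CL, 2123 ± 227 in INT and 1938 ± 1.12 in CH (SD, n = 2 each). That was 2.44-fold for CL over CH, 2.23-fold for CL over INT and 1.10-fold for INT over CH. As deposited, the order CL, INT, CH held for the single arrays, but the step from INT to CH was small. After quantile normalization the INT and CH arrays overlapped, and the fit could not tell these 2 groups apart. The transcript level per cell and the number of cells carrying it cannot be told apart in these pools.

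**Figure D1:**
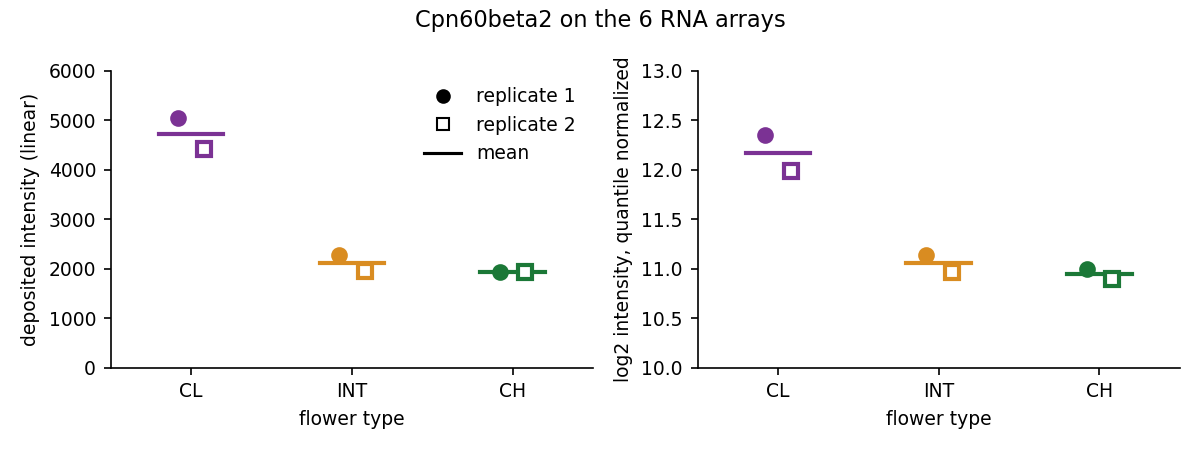
Cpn60beta2 on each RNA array, as deposited intensity on a linear axis from 0 (left) and as quantile-normalized log2 intensity (right), with circles for replicate 1, squares for replicate 2 and a line at the mean of the 2 arrays of a flower type. The CL arrays stand at 5041 and 4416, and the 4 INT and CH arrays lie between 1937 and 2284.

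For the comparisons, intensities were put on a log2 scale with a small offset and quantile normalized, which gives each array the same distribution of values. On that scale Cpn60beta2 measured 12.35 and 11.99 in CL, 11.14 and 10.97 in INT, and 11.00 and 10.90 in CH. The 2 CL arrays differed from each other by 0.36, the 2 INT arrays by 0.17 and the 2 CH arrays by 0.10, while the lower CL array stood 0.85 above the highest of the other 4. A gap between CL replicates smaller than that of Cpn60beta2 was found for 46.9% of all probe sets, bright and dim together. Its replicate error in CL was not compared with that of equally bright probe sets. CL minus CH was 1.22 and CL minus INT was 1.12 log2 units. Taken by replicate number, CL minus CH was 1.35 for replicate 1 and 1.09 for replicate 2, and CL minus INT was 1.21 and 1.02. On the deposited values, before quantile normalization, the rank of the probe set from the brightest down was 389 and 540 in CL, 1161 and 1369 in INT, and 1330 and 1457 in CH. The separation of CL was thus present in the ranks within each array as well.

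The comparison of INT with CH, in which chilling lasted equally long but came at a different stage, was not named in the choice of the gene. That choice did use the arrays of both groups, as the low side of each difference, so this comparison is not independent of it. INT minus CH was 0.11 log2 units, with a 95% interval from -0.35 to 0.56 and a limma adjusted p of 0.9945. The 2 INT arrays and the 2 CH arrays overlapped on the normalized scale, CH replicate 1 lying above INT replicate 2. As deposited they did not overlap, both INT arrays being the higher, with log2 values of 11.17 and 10.96 in INT and 10.94 in both CH arrays. A difference between INT and CH was therefore not resolved, and the interval leaves room for one of up to 0.56 log2 units upward or 0.35 downward.

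The same arrangement, both CL arrays above all 4 others, was met by 1313 probe sets, or 5.77% of those tested. A gap at least as wide as that of Cpn60beta2 was found for 31 of them, or 0.136%. Of these 31, 1 had a mean over the 6 arrays above the median of all probe sets, 8.22 log2 units, and that 1 was Cpn60beta2 itself, with a mean of 11.39. The next widest gaps among the 11373 probe sets above that median were 0.63 for AT5G48760 and 0.62 for psaJ, a plastid-encoded subunit of photosystem I; both were singled out after their values were seen. In the opposite arrangement, with both CL arrays below the other 4, a gap of at least that width was also found for 31 probe sets, 2 of them above the median. The gene was picked for its place in this ranking, so the counts describe it and carry no test. Over all probe sets limma called 0 in CL against CH, 0 in CL against INT and 0 in INT against CH at an adjusted p under 0.05, or 0.0% in each. At an unadjusted p under 0.05 it found 803 (3.53%), 1001 (4.4%) and 1082 (4.76%).

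**Figure D2:**
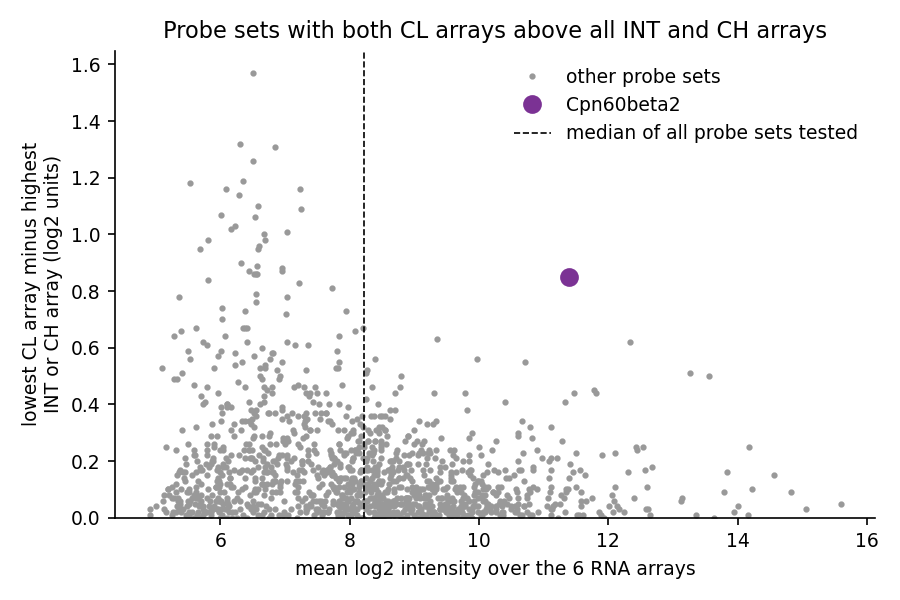
Gap between the lowest CL array and the highest INT or CH array, in log2 units, against the mean log2 intensity over the 6 RNA arrays, for the 1313 probe sets whose CL arrays both lay above the other 4. Cpn60beta2 has a gap of 0.85 at a mean of 11.39; every other gap of at least that width lies left of the dashed line, the median of 8.22 over all probe sets tested.

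On the genomic DNA array Cpn60beta2 had an intensity of 712, brighter than 74.2% of the probe sets tested. Its Arabidopsis probes thus bound Cardamine DNA better than most did, though 1 array without a replicate gives this value. Which beta subunit transcripts of Cardamine bound these probes was not tested. The 25S ribosomal RNA control probe set followed replicate number and not flower type, with 1823 and 393 in CL, 1961 and 629.6 in INT and 2652 and 146 in CH. The middle GAPDH control probe set measured 26571 and 23772 in CL, 22760 and 22370 in INT, and 23766 and 24021 in CH. Over the 16 actin, GAPDH and ubiquitin control probe sets, the ratio of mean intensity ran from 0.83 to 1.42 for CL over CH and from 0.681 to 1.49 for CL over INT. Of these 16 control probe sets, 3 had both CL arrays above the other 4, an arrangement that 5.77% of the probe sets tested had. Their part in the Cpn60beta2 result was not tested.

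Among the other genes of the chloroplast chaperonin limma called 0 at an adjusted p under 0.05 in each comparison, where it called 0.0% of all probe sets. Of 9 listed genes the annotation named 4, counting Cpn60beta2. Cpn60beta3, another beta subunit, had intensities of 584 and 892 in CL, 426.5 and 410.1 in INT, and 532 and 874 in CH. Replicate 2 was the brighter in CL and in CH, the CL and CH arrays overlapped, and both INT arrays were the lowest of the 6. Its CL minus CH difference was 0.10 log2 units (95% interval from -0.68 to 0.88, limma adjusted p = 0.9999), and it turned to -0.22 without CL replicate 2 and to -0.27 without CH replicate 1. CL minus INT was 0.72 (interval from -0.06 to 1.50) and INT minus CH was -0.62 (interval from -1.40 to 0.16). On the genomic DNA array its intensity was 49.2, above 10.2% of probe sets, so its probes bound Cardamine DNA weakly.

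Cpn60beta4, which in Arabidopsis serves the folding of the NdhH subunit of the plastid NDH complex, hardly varied. Its intensities were 305 and 253 in CL, 289 and 313 in INT, and 334 and 299.8 in CH. On the normalized scale it measured 8.30 and 8.24 in CL, 8.35 and 8.40 in INT, and 8.41 and 8.40 in CH. There both CL arrays lay below all INT and CH arrays, by a small step. Both CL arrays were below both CH arrays for 14.8% of all probe sets, and below both INT arrays for 16.0%. CL minus CH was -0.14 (interval from -0.91 to 0.64) and CL minus INT was -0.10 (interval from -0.88 to 0.67), with limma adjusted p of 0.9999 and 0.995. Its genomic DNA intensity was 668, above 71.7% of probe sets and close to that of Cpn60beta2. AT3G60210, entered in the list as a co-chaperonin and named by locus alone in the annotation, measured 10.20 and 9.24 log2 units in CL, 9.75 and 9.57 in INT, and 9.80 and 9.17 in CH. The CL arrays enclosed those of INT and overlapped those of CH, and CL minus CH was 0.23 (interval from -0.60 to 1.07). The median CL minus CH difference of the 3 genes apart from Cpn60beta2 was 0.10, against -0.01 over all probe sets. Without any 1 of the CL or CH arrays it lay between -0.16 and -0.08.

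**Figure D3:**
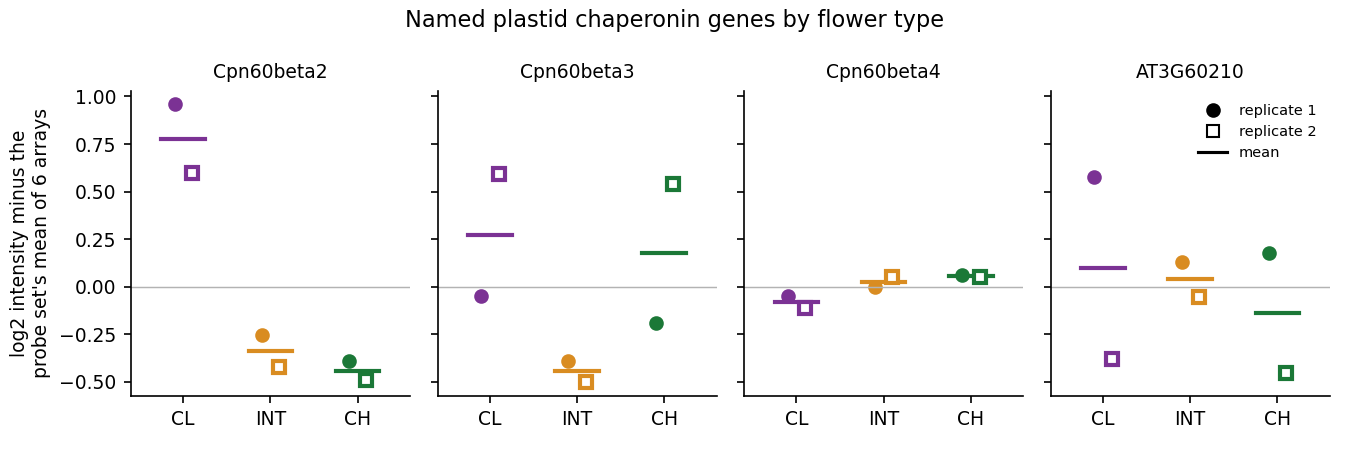
Log2 intensity of the 4 plastid chaperonin genes named by the annotation, each less its own mean over the 6 RNA arrays, by flower type; circles are replicate 1, squares replicate 2 and lines the mean of 2 arrays. Cpn60beta2 alone of the 4 has both CL arrays above all INT and CH arrays.

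Chaperonins also work in the cytosol and in mitochondria. Of the 9 listed subunits of the cytosolic CCT complex, 8 were named, all by locus alone, and their CL minus CH differences ran from -0.27 to 0.62 with a median of 0.01. Both CL arrays lay above both CH arrays for 1 of the 8 and below for 0, where the shares over all probe sets were 13.9% and 14.8%. AT5G20890 measured 10.33 and 10.68 in CL, 10.38 and 10.27 in INT, and 9.28 and 10.50 in CH. Its CL minus CH difference of 0.62 rested on CH replicate 1 and was 0.01 without it. AT3G03960, the member whose groups did not overlap, differed by 0.23, with 12.32 and 12.17 in CL and 12.02 and 12.01 in CH. AT5G16070 (0.27) and AT3G18190 (-0.27) had overlapping CL and CH arrays. Of 5 mitochondrial chaperonin genes 1 was named, AT1G23100, with 7.01 and 7.23 in CL, 6.57 and 6.67 in INT, and 5.91 and 7.37 in CH. Its CL and CH arrays overlapped, with a CL minus CH difference of 0.48. Both CL arrays lay above both INT arrays, with a CL minus INT difference of 0.50, an arrangement that 17.0% of all probe sets had.

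Other plastid chaperones and subunits of the Clp protease, which removes damaged stromal proteins, were named for 4 of 19 genes. Their CL minus CH differences ran from -0.61 to 0.28, with a median of 0.06. CLPP4, a protease subunit, measured 11.02 and 11.26 in CL, 11.16 and 11.15 in INT, and 11.35 and 10.87 in CH, all 3 groups overlapping. AT1G36390, entered as a plastid GrpE, the nucleotide exchange partner of Hsp70, had the lowest difference, with 8.38 and 7.94 in CL and 8.92 and 8.63 in CH. AT1G09130 (0.28) and AT5G55220 (0.09) had overlapping CL and CH arrays.

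Rubisco and its assembly factors are the best known clients and partners of the chloroplast chaperonin, and 6 of 12 listed genes were named. Their CL minus CH differences ran from -0.28 to 0.77, with a median of 0.03. The plastid gene rbcL, for the large subunit that the chaperonin folds, measured 10.20 and 9.44 in CL, 10.61 and 9.56 in INT, and 9.52 and 9.23 in CH. Replicate 1 was the brighter in each group and CL and CH overlapped. RCA, the gene of Rubisco activase, was highest in INT, with 11.33 and 11.05 in CL, 12.10 and 12.03 in INT, and 10.54 and 11.49 in CH. RCA had an unadjusted p under 0.05 in CL against INT (difference -0.88) and in INT against CH (difference 1.06), as did 4.4% and 4.76% of all probe sets, and it did not pass the adjustment, with a limma adjusted p of 0.985 and 0.983. AT3G04550, entered as a Rubisco assembly factor, differed by 0.77 between CL and CH, with 8.91 and 8.73 in CL, and 8.54 and 7.56 in CH, and by 0.27 without CH replicate 2. The 3 remaining members, AT5G28500, AT5G51110 and AT3G47650, had CL minus CH differences of -0.28, -0.14 and -0.11.

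In plastid division, where loss of chaperonin subunits is known in Arabidopsis to disturb the FtsZ ring, 2 of 11 genes were named. FTSZ2-1 differed by 0.22 and FTSZ2-2 by 0.01 between CL and CH, and both had overlapping arrays. Of 16 genes entered in a list of cytosolic heat shock genes, 1 was named, ATHSP22.0, a small heat shock protein. Its place in the cell was not checked, so it does not stand for cytosolic heat shock genes. ATHSP22.0 measured 7.43 and 8.01 in CL, 7.69 and 8.66 in INT, and 7.75 and 8.19 in CH. The annotation named 0 of 21 genes of plastid protein import. Over the 25 named genes of these lists other than Cpn60beta2, limma called 0 at an adjusted p under 0.05 in each comparison. The counts at an unadjusted p under 0.05 were 0 in CL against CH, 1 in CL against INT and 1 in INT against CH, the 1 being RCA both times, where the shares over all probe sets were 3.53%, 4.4% and 4.76%. Both CL arrays lay above both CH arrays for 2 of the 25 and below for 2, where 13.9% and 14.8% of all probe sets were. In CL against INT the counts were 2 above and 3 below, where 17.0% and 16.0% of all probe sets were, and in INT against CH they were 6 above and 4 below, against 16.4% and 17.8%. The median differences of the 25 genes were 0.04, -0.01 and 0.06. The lists do not hold every named chaperone. Hsp70-2, with a CL minus CH difference of 0.96 and both CL arrays above all INT and CH arrays, was not among the 25. It is described below with the genes chosen for their likeness to Cpn60beta2.

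**Figure D4:**
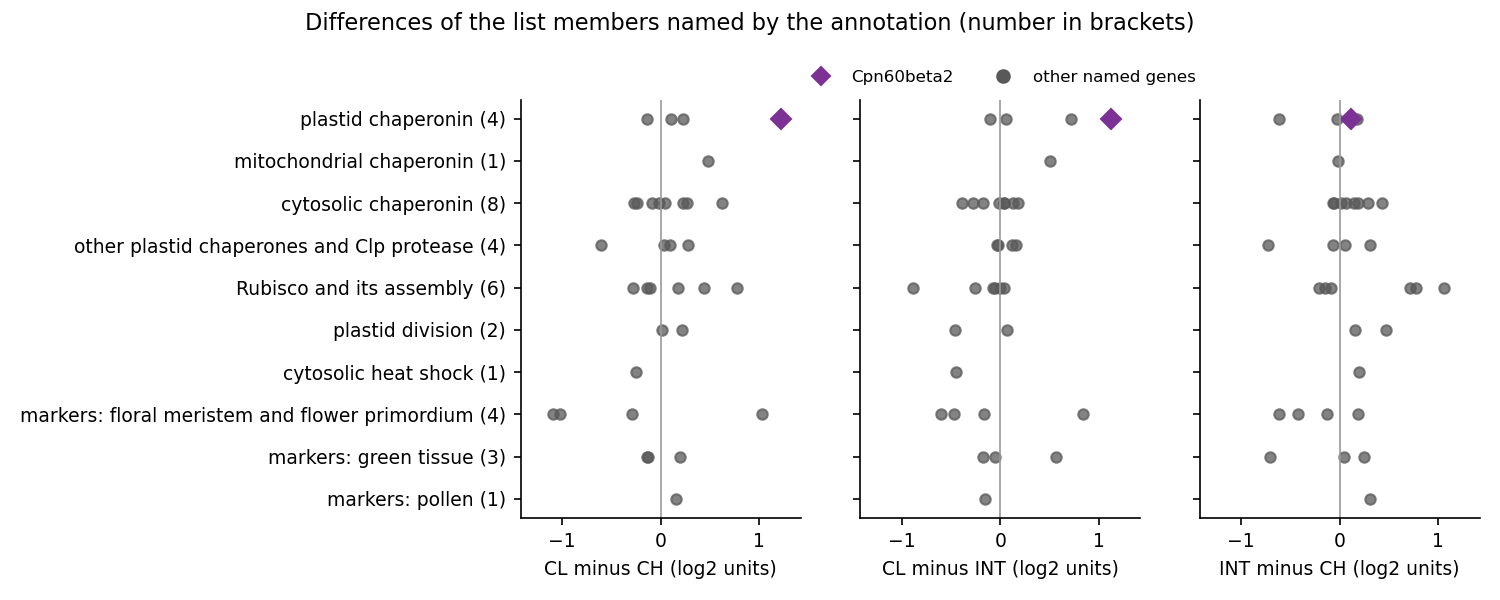
Differences between flower types, in log2 units, for every list member that the annotation named, 1 point per gene, with the number of named genes in brackets. In the CL minus CH and CL minus INT panels Cpn60beta2, at 1.22 and 1.12, lies right of the other 25 chaperone, Rubisco and division genes; in the INT minus CH panel it lies at 0.11 among them.

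Markers of tissue were also read, of which the annotation named 4 of 16 for floral meristem and flower primordium, 3 of 16 for green tissue and 1 of 8 for pollen. The summed intensity of the floral markers CLV3, UFO, JAG and ROXY1 was 653 and 826 in CL, 996 and 682 in INT, and 1039.5 and 1118 in CH, and that of the green markers LHCB4.1, PSAN and PRK was 16624 and 12008 in CL, 14231 and 14393 in INT, and 16050.4 and 10109 in CH. None of the 8 was listed at 0. No detection call was used, so this does not show which of them were expressed. The pollen marker AT5G19580 was dim, with 48.1 and 34.3 in CL, 39.8 and 62.7 in INT, and 25.2 and 43.7 in CH. None of the 3 green markers separated CL from CH. Over all probe sets both CL arrays lay above both CH arrays for only 13.9% and below for 14.8%. The CL minus CH differences were -0.13 for the light-harvesting protein gene LHCB4.1, 0.20 for the photosystem I subunit gene PSAN and -0.14 for the phosphoribulokinase gene PRK.

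One of the 8 named markers had both CL arrays above the other 4, as Cpn60beta2 did and as 5.77% of all probe sets did. CLV3, a signalling peptide made by the stem cells at the centre of a meristem, had intensities of 142 and 109 in CL, 67.1 and 53.6 in INT, and 61.0 and 34.3 in CH. CL minus CH was 1.03 log2 units (interval from 0.02 to 2.03) and did not pass, with a limma adjusted p of 0.9999; it was 1.43 with no offset and 0.61 with an offset of 100. The other floral markers did not share this arrangement. UFO, an F-box protein of floral patterning, measured 6.79 and 9.08 in CL and 8.78 and 9.26 in CH. JAG, a growth regulator of floral organs, measured 8.16 and 7.71 in CL and 8.50 and 7.95 in CH. ROXY1, a glutaredoxin of petal development, measured 7.45 and 6.56 in CL and 7.67 and 8.37 in CH. Their CL minus CH differences were -1.09, -0.29 and -1.02. The part of these cells in the Cpn60beta2 result was not tested.

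The genes most like Cpn60beta2 were sought among 1671 probe sets with 1 gene, a mean above the median and a range of at least 1 log2 unit over the arrays. Likeness was Pearson's r over the 6 RNA arrays, given as a description. The arrays fall into 2 that are high and 4 that are low for Cpn60beta2, so the measure rests on the CL arrays. Over the 4 INT and CH arrays alone, r of the 10 closest genes ran from -0.90 to 0.85. Of the 1671, 1 had an r above 0.95 and 4 had an r below -0.95.

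The closest gene was AT5G62400 (r = 0.953), followed by ACT11 (0.926), AT5G64640 (0.914), Hsp70-2 (0.903), AT1G69480 (0.893), psaJ (0.892), AT3G01060 (0.886), AT3G07010 (0.886), ty2 (0.881) and AT2G18580 (0.877). All 10 had both CL arrays above the other 4, an arrangement that their choice by r favours. The INT and CH arrays overlapped in 5 of the 10, and both INT arrays lay above both CH arrays in 2. Over all probe sets both INT arrays lay above both CH arrays for 16.4% and below for 17.8%, and the rest overlapped. Their CL minus CH differences ran from 0.54 for AT1G69480 to 0.96 for Hsp70-2, each smaller than that of Cpn60beta2. On intensities as deposited, 5 of these 10 were again among the 10 closest. On the normalized scale AT5G64640, alone of the 10, ranked the 6 arrays in the same order as Cpn60beta2.

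Hsp70-2, a cytosolic member of the Hsp70 chaperone family, had intensities of 9189 and 5163 in CL, 4094 and 3437 in INT, and 2943 and 3648 in CH. CL replicate 1 was far above the rest, and CL replicate 2 was above the INT and CH arrays by a smaller step. Its CL minus CH difference of 0.96 was 0.48 without CL replicate 1 and 1.44 without CL replicate 2, and CL minus INT, 0.80 with all arrays, was 0.32 and 1.28. For Cpn60beta2 the same omissions gave a CL minus CH of 1.04 and 1.39. Its genomic DNA intensity was 1904, above 97.1% of probe sets.

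ACT11, an actin expressed in reproductive organs of Arabidopsis, had 1563 and 1027 in CL, 712 and 839 in INT, and 785 and 665 in CH. Here too CL replicate 1 was the highest, and CL minus CH was 0.82, against 0.51 without that array. psaJ had 7232 and 8207 in CL, 4248 and 3380.3 in INT, and 4419 and 4585 in CH. It was the 1 gene of the 10 in which CL replicate 2 was brighter than CL replicate 1, and both INT arrays were below both CH arrays. CL minus CH was 0.70 and CL minus INT was 1.00. Among the 10, genomic DNA intensity was above the median of all probe sets for 5, and ty2 was the dimmest on that array at 14.5.

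The 5 genes most opposite to Cpn60beta2 were AT1G21000 (r = -0.978), AT1G26940 (-0.975), AT5G02980 (-0.966), AT4G37180 (-0.963) and AT5G58575 (-0.949). All 5 had both CL arrays below the other 4. AT5G58575 measured 7.51 and 7.96 in CL, 9.33 and 8.93 in INT, and 8.93 and 9.01 in CH, with a CL minus CH difference of -1.24, close in size to that of Cpn60beta2 and opposite in direction. AT1G21000 measured 7.30 and 7.79 in CL, 8.69 and 8.74 in INT, and 8.71 and 8.56 in CH. These genes were chosen on the CL arrays that they share with Cpn60beta2, so their differences are a description.

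**Figure D5:**
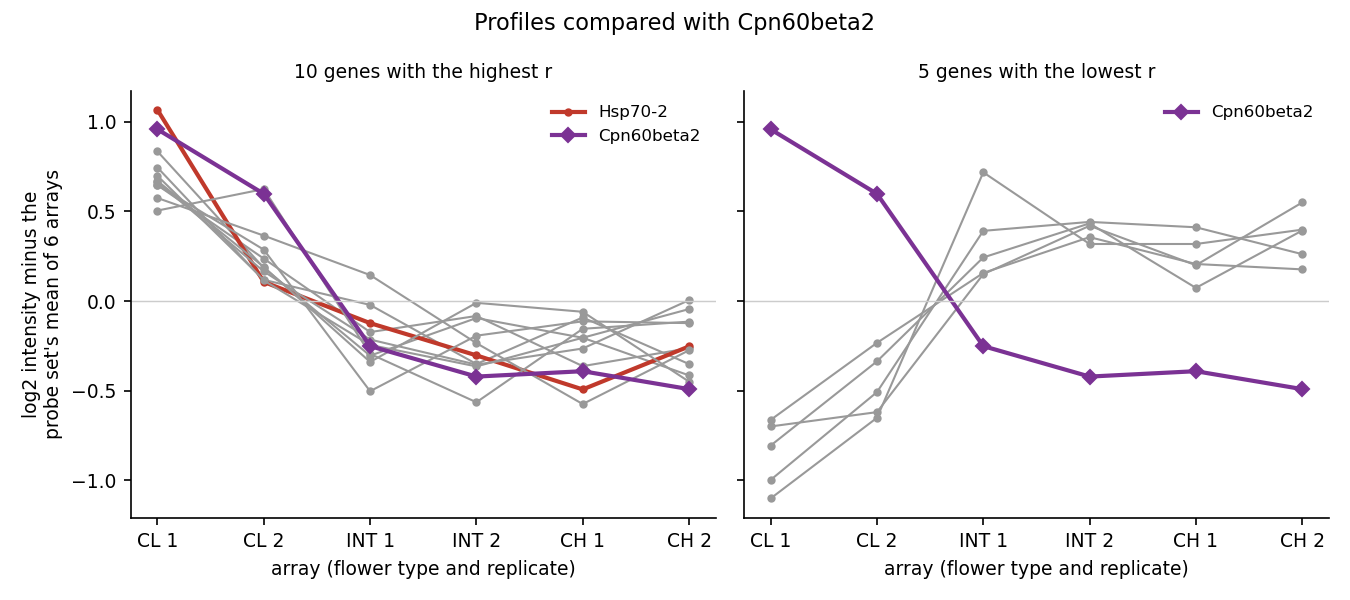
Log2 intensity, less each probe set's mean over the 6 RNA arrays, for the 10 genes with the highest and the 5 with the lowest Pearson's r to Cpn60beta2; lines join the values of 1 gene and do not mark an order of arrays. The genes on the left are high in both CL arrays, most of them higher in CL replicate 1, and those on the right are low in both.

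In Arabidopsis Cpn60beta2 is AT3G13470 on chromosome 3. The nearest locus numbers on either side were sought only among genes that the annotation names by locus alone. Genes named by a symbol, which may lie closer, were not considered. The genes so found had overlapping CL and CH arrays, except AT3G13510, whose CL arrays were both the lower. Over all probe sets both CL arrays lay below both CH arrays for 14.8% and above for 13.9%. AT3G13430 measured 8.47 and 8.32 in CL and 8.46 and 8.06 in CH, and AT3G13440 measured 10.34 and 9.82 in CL and 10.20 and 9.71 in CH. On the other side AT3G13480 measured 9.04 and 8.93 in CL and 9.03 and 9.18 in CH, and AT3G13510 measured 10.91 and 10.89 in CL and 10.97 and 11.30 in CH. Their CL minus CH differences were 0.14, 0.13, -0.12 and -0.23, with limma adjusted p of 0.9999 for each. CL minus INT was -0.17, 0.46, -0.07 and -0.03 in the same order. Both CL arrays of AT3G13440 lay above its INT arrays at 9.72 and 9.53, as for 17.0% of all probe sets. Those of AT3G13430 lay below its INT arrays at 8.55 and 8.59, as for 16.0%. The order of these genes in Cardamine was not examined.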

How the data were processed

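The deposited values are linear intensities per probe set for 6 RNA arrays and 1 genomic DNA array. A calibration of the RNA arrays by the genomic DNA array, following Hammond and co-workers, was done by the authors per the labels; the summarizing software is not given in the sources used here. Scaling had brought the trimmed mean (2% off each end) to 500.0 on all 7 arrays. Of 22810 probe sets, 64 controls were left out. An offset of 28.2 (the median RNA value divided by 10) was added before log2, which makes folds of dim genes too small, and arrays were quantile normalized. Differences were fitted in R 4.3.3 with limma 3.58.1 (flower type alone, all RNA arrays, eBayes with a trend, two-sided, Benjamini-Hochberg over all probe sets, threshold 0.05), tested on simulated data. Figures used matplotlib 3.10.9 in Python 3.11.15.

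The annotation gave 13513 probe sets 1 gene, 503 several and 8794 none. Genes of 8 lists and 3 marker lists, written from knowledge of Arabidopsis loci, were matched by symbol or locus: 34 of 142 matched, 1 probe set per gene was used, that with the highest mean, and the symbol CCT1 was dropped because its neighbours lay on another chromosome. The gene, the lists and the tests were chosen with earlier results of these data known. Named were all matched members, or the 4 lowest p-values in CL against CH where a list had over 6, the 10 genes most like Cpn60beta2 and the 5 most opposite. Arrays have no read depth, and their number limits the precision. Alternatives covered normalization, offset, variance model, filters, a replicate block and leaving out each array. No sequence is shown, as none was used here.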

Additional observations from a re-analysis of the deposited data

How the results depend on the processing

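Cpn60beta2 had a higher mean in CL under each of the 14 alternatives, a direction it was chosen for. Its lower CL array stood 0.85 log2 units above the highest INT or CH array, so leaving out 1 array could hardly reverse it. The variance models and the replicate block cannot change a difference at all. The alternatives therefore describe the size of the differences and do not test their direction. Leaving out single arrays gave 1.04 to 1.39 for CL minus CH and 0.94 to 1.28 for CL minus INT. The other settings gave 1.19 to 1.30 and 1.09 to 1.15. INT minus CH ranged from 0.02 to 0.19 without single arrays and from 0.10 to 0.16 elsewhere, with limma adjusted p from 0.968 to 1.0. The counts of called probe sets were 0 under all 16 planned settings in each comparison, the lowest adjusted p being 0.185, leaving out single arrays included. Only the unadjusted threshold, added after the data were seen, gave calls: 803 in CL against CH, 1001 in CL against INT and 1082 in INT against CH. Replicate numbers are shared by the flower types, but their replicate differences correlated at 0.246 (CL and CH), -0.047 (CL and INT) and -0.051 (INT and CH). The numbers were therefore not taken to pair the arrays. A replicate block left the Cpn60beta2 differences at 1.22, 1.12 and 0.11, as it must where each flower type has 1 array of each number. With that block the limma adjusted p was 0.974 for INT minus CH, and 0 probe sets were called. Of 2178 recomputed values of other named genes and list medians, 8 moved by more than the replicate spread, among them CLV3 with another offset. With 2 arrays in a group, the half-width of the 95% interval was 0.90 log2 units for the median probe set.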
